A study of Mus musculus with 4 samples.

Results

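Lysophosphatidic acid (LPA) is a signalling lipid, and its receptors and the enzymes that supply it were followed in Swiss 3T3 cells, a mouse fibroblast line. The set holds 8 genes chosen by name: the receptor genes Lpar1, Lpar2, Lpar3, Lpar4, Lpar5 and Lpar6, Enpp2, which encodes autotaxin, and Pla2g3, which encodes a secreted group III phospholipase A2. They are 8 of 29635 genes on the array and are covered by 12 of its 39429 probes. Of the 8 genes, 7 were measured on all 4 arrays, while the Lpar3 probe did not rise well above background anywhere. The fibroblasts were Lpar1+/+ (WT) or Lpar1-/- (KO), and each line was taken at 0 h and 24 h of a coculture with WT mast cells grown from bone marrow, in 100 ng/ml stem cell factor (SCF). The KO line is a single clone made with CRISPR/Cas9, the guide lying near exon 3 of Lpar1 ahead of the part that encodes the first membrane helix. Each group is 1 single-colour array of RNA pooled from 3 samples, so no spread between replicates can be estimated and no test or p-value is given. The labels do not say whether the 0 h samples held mast cells, and the design text speaks of fibroblasts with or without them. All 4 arrays lay on 1 slide. Fibroblasts were recovered after coculture either by trypsin and reseeding or with beads against CD117, the Kit protein.

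Autotaxin is a secreted lysophospholipase D that makes LPA from lysophosphatidylcholine outside the cell. LPA then acts through G protein-coupled receptors: LPA1, LPA2 and LPA3 belong to the endothelial differentiation gene (EDG) family, while LPA4, LPA5 and LPA6 are closer to the purinergic receptors. In fibroblasts the LPA1 receptor is known for driving stress fibres and contractile and matrix genes. Secreted phospholipases A2 release lysophospholipids that autotaxin can use, and group III phospholipase A2 is known for a role in mast cell maturation in mice.

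The stretches that the array reads for 3 of these genes show what each signal can and cannot report. Coordinates are those of the file headers' build, mm9, and sequences run 5′ to 3′ on the transcript's strand. The Lpar1 probe lies on chromosome 4, at chr4:58499672-58499731 on the minus strand, in coding sequence for the cytoplasmic end of the third membrane helix. This is downstream of the region the guide was aimed at, so the probe does not check the genotype.
Lpar1 probe: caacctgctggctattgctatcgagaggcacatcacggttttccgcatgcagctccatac
The dimmer of the 2 Lpar2 probes, at chr8:72350307-72350366 on the plus strand, lies in coding sequence at the end of the seventh membrane helix. The brighter one starts 4511 bases further downstream, in the transcript and in the genome alike, and the 2 probes went different ways.
Lpar2 probe 2: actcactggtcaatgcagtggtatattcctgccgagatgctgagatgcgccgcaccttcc
The Enpp2 probe, at chr15:54670921-54670980 on the minus strand, has 1 open reading frame, which ends in a stop codon (capitals) and is the end of the autotaxin coding sequence.
Enpp2 probe: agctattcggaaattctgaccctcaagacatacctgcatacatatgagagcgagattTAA

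The arrays differed in how many weak spots they could read. Spots well above background made up 72.7% and 71.5% of the WT and KO arrays at 0 h and 67.3% and 62.1% at 24 h, and no spot was saturated. Levels below are log2 signal relative to the array's own 75th percentile, so 0 is that percentile, and differences between 2 arrays are in log2 units with a standard error (SE) from the scanner's spot error, near 10 percent of a bright signal. Higher and lower are used for genes that differed at least 2-fold with a signal well above background on every array compared. Weak signals moved together: across genes with a mean log2 signal below −4, the median difference was 0.49 for KO minus WT at 0 h and −0.65 at 24 h, against 0.06 and −0.09 over all genes. Added control RNAs of that brightness, 2 of 10, differed in the same directions, by 0.63 and −0.78 on average. The other 8 control RNAs, which are brighter, differed by 0.29 and 0.48 on average, with a highest value of 0.81 at 24 h, so they went the other way from the weak ones at 24 h. The part of that shift in the members' differences was not tested. Over time these 2 controls differed by 1.11 in WT and −0.29 in KO.

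Cell type markers separated the times. The 20 mast cell markers had a median level of 4.17 in WT and 4.97 in KO at 0 h, against −4.32 and −4.31 at 24 h. Their summed signal, in units of the 75th percentile, was 515 and 742 at 0 h and 3.30 and 19.1 at 24 h. Kit stood at 4.46 and 5.37 at 0 h, while at 24 h it was not well above background in WT and stood at −5.40 in KO. The mast cell protease gene Cpa3 was well above background on all 4 arrays, at 6.20, 6.25, −1.75 and −1.07. Of 20 fibroblast markers, 19, 19, 19 and 18 were well above background. The collagen gene Col1a1 lay between 2.87 and 3.13, whereas Pdgfra, a growth factor receptor gene, stood at 2.10 and −0.57 at 0 h and at 2.66 and 1.37 at 24 h. In KO at 0 h, 2 of 19 measured fibroblast markers were higher than in WT and 5 were lower. Among all genes 9.34% were higher and 4.07% lower. Thy1, a surface marker of many fibroblasts, was at 3.73 and 4.12 on the KO arrays while in WT it was at −7.02 at 0 h and not well above background at 24 h. The KO cells are 1 clone, so other differences of that clone and the loss of Lpar1 cannot be told apart in any KO minus WT value. In such bulk RNA, fewer cells of a type and less RNA per cell cannot be told apart.

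The targeted gene, Lpar1, gave a low signal that differed by less than 2-fold between arrays. Its probe read 130 in WT and 93.2 in KO at 0 h, then 105 and 61.5 at 24 h, in scanner units. In log2 these are −3.20, −3.43, −3.15 and −3.61, so both KO arrays were below both WT arrays, by little. KO minus WT stood at −0.22 ± 0.21 (SE) at 0 h and −0.46 ± 0.21 at 24 h, and the 95% interval of the first, −0.63 to 0.18, includes 0. Neither passed 2-fold, and the transcript's probe region was still read on both KO arrays. The mast cells of the coculture were WT, mast cell transcripts were read on those arrays too, and their part in this signal was not tested. The change over 24 h was 0.06 ± 0.21 in WT and −0.18 ± 0.21 in KO. These values depended on the scaling: with paired deviations of fibroblast markers KO minus WT at 0 h was 0.10, and the KO change was −1.09, past 2-fold. With the median level of those markers they were 1.04 and −1.27, both past 2-fold.

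Enpp2, the gene for autotaxin, showed the widest range of the set. The signal was 80.4 in WT and 339 in KO at 0 h, then 1189 and 1758 at 24 h, which in log2 and the same order is −3.90, −1.57, 0.36 and 1.23. Both 24 h arrays were above both 0 h arrays, and KO was above WT at each time. In WT the 24 h level was 4.26 ± 0.21 higher, a 19.1-fold difference and the 2nd highest of 19172 genes measured. In KO it was 2.80 ± 0.20 higher, or 6.94-fold, ranking 21st of 17841. KO exceeded WT by 2.33 ± 0.21 at 0 h (5.03-fold, 138th of 20286) and by 0.87 ± 0.20 at 24 h (1.83-fold, under the 2-fold limit). The gap between genotypes was thus smaller at 24 h, and the KO change less the WT change was −1.46 ± 0.29, or −0.87 and under 2-fold with normexp. With normexp background correction the WT change was 3.40 and the KO excess at 0 h was 1.56, in the same directions. Scaling the arrays on fibroblast markers by their paired deviations gave 3.74 and 2.66. The KO change over time fell from 2.80 to 1.89 under that scaling and to 1.70 with the markers' median level, still past 2-fold. The fibroblast markers had a median deviation of −0.16 and −0.48 on the 0 h arrays and 0.36 and 0.42 on the 24 h arrays. Their median level was 3.13 in WT and 1.86 in KO at 0 h, then 3.05 and 2.96 at 24 h. The part of these marker differences in the Enpp2 result was not tested.

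**Figure D1:**
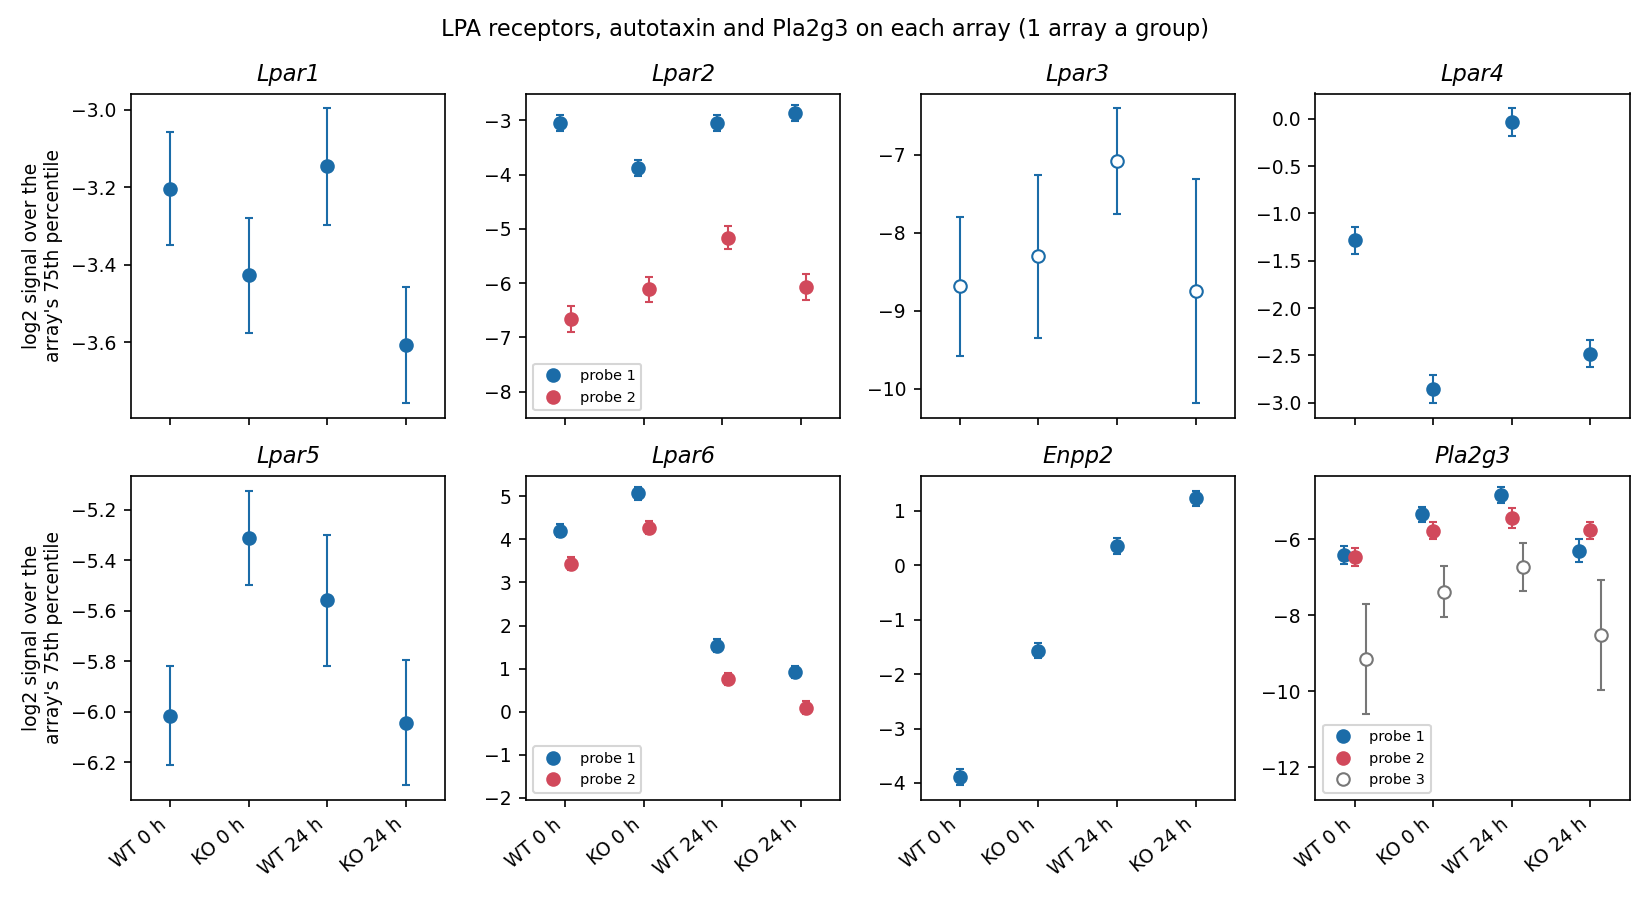
Log2 signal over the array's 75th percentile for every probe of the 8 genes on each array, with bars of 1 SE from the spot error. Each panel has its own vertical scale and open circles mark probes not well above background; Enpp2 climbs from −3.90 on WT 0 h to 1.23 on KO 24 h, whereas Lpar6 drops from 5.07 on KO 0 h to 0.92 on KO 24 h.

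Lpar2, the gene for another EDG-family receptor, gave results that depended on the probe. At the brighter probe (chr8:72354818-72354877) the log2 signal was −3.04 and −3.88 in WT and KO at 0 h, then −3.05 and −2.86 at 24 h. On this scale KO 0 h is the low array, and the other three lie close together. The KO minus WT difference was −0.84 ± 0.21 at 0 h and 0.19 ± 0.21 at 24 h, and the level was 1.02 ± 0.21 higher at 24 h in KO, against −0.001 ± 0.21 in WT. At the probe in the coding sequence the levels were −6.66, −6.11, −5.16 and −6.07, and here WT 24 h is the high one. That probe gave 0.55 ± 0.33 and −0.91 ± 0.32 for KO minus WT, and 1.501 ± 0.31 and 0.05 ± 0.34 for the change over time in WT and KO. The 2 probes therefore disagreed in sign for KO minus WT at both times, and the weaker one moved the way the weak controls did. Averaging both put the KO change over time at 0.54, and at the brighter probe it was 0.91 with normexp and 0.12 under the paired fibroblast scaling, all under 2-fold. Under that scaling KO 0 h, at −3.40, was level with WT 24 h, at −3.41, and WT 0 h was the high array at −2.89. Lpar3, the third EDG-family receptor, read between 1.75 and 6.84 scanner units, and no order among its levels can be given.

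Lpar4, a receptor of the purinergic-like branch, was lower in KO at both times. The signal was 492 in WT and 138 in KO at 0 h, and 905 and 134 at 24 h, or −1.28, −2.86, −0.03 and −2.48 in log2. Both KO arrays were below both WT arrays. KO was lower than WT by 2.98-fold at 0 h (−1.57 ± 0.21, 339th lowest of 20286) and by 5.46-fold at 24 h (−2.45 ± 0.21, 199th lowest of 17266). The level was 1.25 ± 0.20 higher at 24 h in WT and differed by 0.37 ± 0.21 in KO, with −0.88 ± 0.29 between these changes. Under normexp the genotype differences were −1.31 and −1.94, and under the paired fibroblast scaling −1.25 and −2.51. Scaling on the median level of fibroblast markers, which moved the median of all genes at 0 h by 1.27, put the 0 h difference at −0.31, under 2-fold. The WT change over time was 0.73 under the paired scaling, also under 2-fold. The KO change turned to −0.53 under the paired scaling and −0.72 under the level scaling, and the difference between the changes passed 2-fold there, at −1.26 and −2.06.

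Lpar6, another purinergic-like receptor, had a bright signal at 0 h and was lower at 24 h in both genotypes. Its signal was 22030 in WT and 33584 in KO at 0 h but 2686 and 1421 at 24 h, which in log2 is 4.202, 5.07, 1.54 and 0.92. Both 24 h arrays were below both 0 h arrays, and KO was the highest array at 0 h and the lowest at 24 h. The 24 h level was lower by 6.35-fold in WT (−2.67 ± 0.20, 317th lowest of 19172) and by 17.7-fold in KO (−4.14 ± 0.20, 285th lowest of 17841). KO differed from WT by 0.86 ± 0.20 at 0 h and −0.61 ± 0.20 at 24 h, both under 2-fold, and the KO change less the WT change was −1.48 ± 0.29. Under the paired fibroblast scaling the 0 h difference was 1.19, past 2-fold. A second probe, which shares 27 bases with the first, gave −2.67 and −4.18 over time and 0.83 and −0.67 between genotypes. Over the same arrays the mast cell marker list was lower at 24 h for 17 of 17 measured genes in WT (median −8.14) and 16 of 16 in KO (median −8.91). Among all genes 5.55% and 10.9% were lower. The list's median KO minus WT difference came to 0.87 at 0 h and 0.41 at 24 h. At 24 h the mast cell marker median thus had the opposite sign to Lpar6. In KO 3 of 15 markers were higher, beside 5.76% of all genes, and 1 was lower, beside 12.2%. The median KO minus WT difference of 14 pan-leukocyte markers at 0 h was 1.01. At 24 h it was −0.46 over the 8 measured, the same sign as Lpar6. Of these 8, 1 was lower, beside 12.2% of all genes, and 0 were higher, beside 5.76%. The median was −0.21 with quantile normalization and −0.09 with normexp, against −0.62 for Lpar6 under both. The 14 markers were weak at 24 h, with median levels of −5.53 in WT and −5.37 in KO. For the KO change less the WT change, the median was −0.26 for the mast cell markers and −1.08 for the pan-leukocyte markers. The part of these cells in the Lpar6 signal was not tested.

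Lpar5 read close to the floor on every array, at 18.5, 25.2, 19.6 and 11.4 scanner units, or −6.02, −5.31, −5.56 and −6.04 in log2. WT 0 h and KO 24 h lie within their spot errors of each other. KO against WT gave 0.70 ± 0.27 at 0 h and −0.48 ± 0.36 at 24 h, neither past 2-fold, and the 24 h value was 0.44 with quantile normalization. The difference between the changes, −1.19 ± 0.45, passed it but became 0.11 with quantile normalization and 0.06 with normexp. The signs at each time were those of the weak control RNAs.

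Pla2g3, the phospholipase gene, was likewise weak, and its order followed that of the weak probes. The brightest of its 3 probes (chr11:3393127-3393186) read 14.1 in WT and 24.7 in KO at 0 h, then 32.5 and 9.50 at 24 h, or −6.41, −5.34, −4.83 and −6.30 in log2. WT 24 h was the high array, and WT 0 h and KO 24 h were the low ones. The difference of KO minus WT came to 1.06 ± 0.31 at 0 h and −1.47 ± 0.36 at 24 h, and the change over time was 1.58 ± 0.31 in WT and −0.96 ± 0.36 in KO. A second measured probe gave 0.68, −0.32, 1.01 and 0.00 for the same 4 differences, and the third was never well above background. With normexp the brightest probe gave 0.13, −0.20, 0.27 and −0.06, all under 2-fold. Genes of this brightness included many that moved the same way: among those with a mean log2 signal below −4, 1057 of 6227 were at least 2-fold higher in KO at 0 h, 1210 of 3458 were lower in KO at 24 h, and 2424 of 5290 were higher over time in WT. Over time in KO 591 of 3925 were lower, a smaller share.

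**Figure D2:**
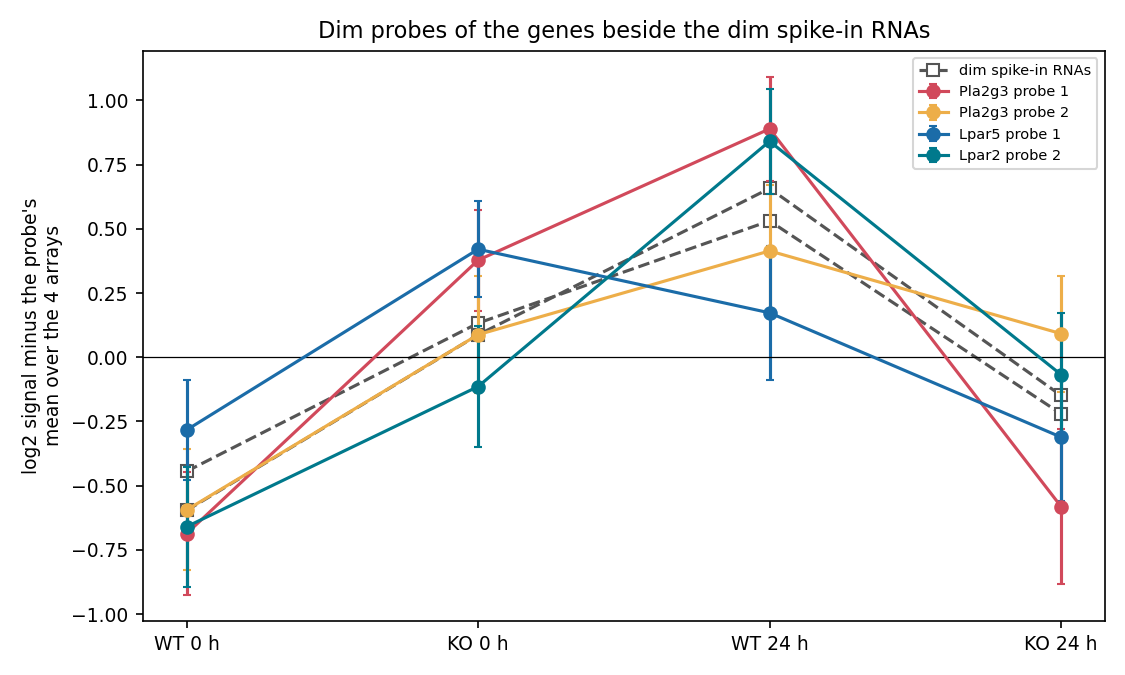
Log2 signal on each array minus the probe's own mean over the 4 arrays, for the weak probes of Pla2g3, Lpar5 and Lpar2 (bars are 1 SE from the spot error) and for the 2 weak control RNAs (open squares). From WT to KO the controls go up by 0.63 at 0 h and down at 24 h (−0.78), and the brightest Pla2g3 probe moves by 1.06 and −1.47.

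The 7 measured genes were counted in each difference. At 0 h, 2 were at least 2-fold higher in KO (Enpp2, Pla2g3), beside 9.34% of 20286 genes, and 1 was lower (Lpar4), beside 4.07%. At 24 h none was higher, beside 5.76% of 17266 genes, and 2 were lower in KO (Lpar4, Pla2g3), beside 12.2%. Only Lpar4 kept its direction and its call between genotypes at both times under the 75th percentile scaling. Over 24 h in WT, 3 were higher (Enpp2, Lpar4, Pla2g3), beside 15.8% of 19172 genes, and 1 was lower (Lpar6), beside 5.55%. In KO, 2 were higher (Enpp2, and Lpar2 at its brighter probe), beside 9.48% of 17841 genes, and 1 was lower (Lpar6), beside 10.9%. In the KO change less the WT change, 1 was higher (Lpar2), beside 4.73% of 17095 genes, and 4 were lower (Enpp2, Lpar5, Lpar6, Pla2g3), beside 13.3%. Without the genes whose call ended under normexp, the genotype calls are Enpp2 at 0 h and Lpar4 at both times, and the time calls are Enpp2 in both genotypes, Lpar4 in WT and Lpar6 in both. With 7 genes, no statement on the set as a whole rests on these counts. The 2 genotype comparisons share no array with each other, but each shares an array with each time comparison.

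**Figure D3:**
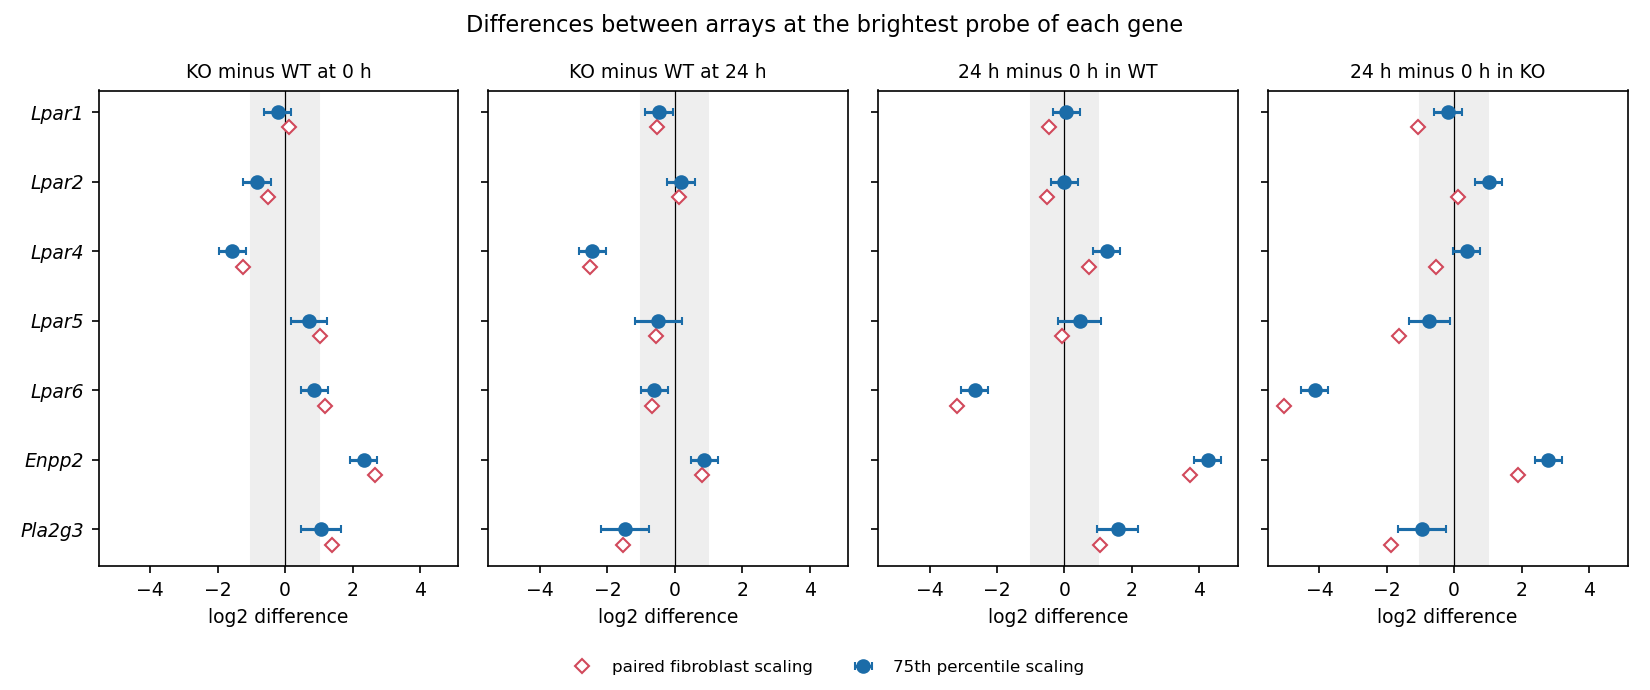
Log2 differences at the brightest probe of each measured gene, with 95% intervals from the spot error (filled circles), and the same under the paired fibroblast scaling (open diamonds); the grey band spans differences under 2-fold. Lpar4 lies left of the band for KO minus WT at both times, at −1.57 and −2.45, and Enpp2 right of it over 24 h in WT and KO, at 4.26 and 2.80.

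Promoters of the 2 receptor genes with the clearest differences are shown as sequence context. RefSeq's table for GRCm38.p6 lists 9 promoters for 6 of the 8 genes. The 250 bases ahead of the Lpar4 start are at chrX:106920375-106920624 on the plus strand, and capitals mark CCAAT or its reverse complement ATTGG.
Lpar4 promoter: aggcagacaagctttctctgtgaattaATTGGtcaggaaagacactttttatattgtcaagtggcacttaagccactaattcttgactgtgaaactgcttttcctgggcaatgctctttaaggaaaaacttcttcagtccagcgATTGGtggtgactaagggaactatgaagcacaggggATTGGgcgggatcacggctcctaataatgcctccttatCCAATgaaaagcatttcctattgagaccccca
It holds 4 matches, beginning 223, 106, 70 and 32 bases before the start. Of 32851 mouse promoters of that length, 33.8% hold at least 1 such match on either strand and 0.84% hold 4 or more. The Lpar6 promoter, at chr14:73237641-73237890 on the plus strand, is shown with the letters GATAA, here as the reverse complement TTATC, in capitals.
Lpar6 promoter: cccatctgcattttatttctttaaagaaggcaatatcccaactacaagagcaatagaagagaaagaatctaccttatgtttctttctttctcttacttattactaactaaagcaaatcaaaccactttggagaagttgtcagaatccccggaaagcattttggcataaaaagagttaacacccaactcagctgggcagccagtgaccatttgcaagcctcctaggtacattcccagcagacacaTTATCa
The single match begins 6 bases before the start, and 22.6% of promoters hold at least 1. GATAA also occurs in the Lpar4 promoter, overlapping a CCAAT match. GGAAGT, also searched, is in neither and in 19.7% of promoters. Motifs were picked after the sequences were seen, and a match describes letters only.

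Genes whose pattern over the 4 arrays lay nearest to each member were sought among 12862 genes, by the root mean square distance between mean-centred log2 levels. Nearest to Lpar4 was Gda, which encodes guanine deaminase, at a distance of 0.09, with levels of 2.001, 0.38, 3.02 and 0.70. Glt8d2 and Hoatz followed at 0.14 and 0.15. Nearest to Lpar6 was Il4ra, the interleukin-4 receptor alpha chain, at 0.12, with levels of 2.28, 3.03, −0.40 and −0.79. Next came the mast cell protease gene Mcpt2 at 0.15 and Bcas3os2 at 0.16. Both were weak at 24 h in WT and KO, at −5.50 and −6.18 for Mcpt2 and −5.31 and −6.01 for Bcas3os2. Enpp2 had no close neighbour, the nearest being Mgp, which encodes matrix Gla protein, at 0.63, then Plekha6 at 0.75 and Scara5 at 0.78. Pla2g3 lay nearest to the weak probes for Defa-rs2, Pou3f4 and Defb28, at 0.03 to 0.04. Around Lpar2 at its brighter probe were Tpbg, Utp20 and Pes1, at 0.03 to 0.04.

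The list of other enzymes around LPA supply holds 16 genes, among them the lysophospholipase genes Pnpla6 and Pnpla7. Its counts are therefore not counts of LPA-making enzymes alone. At 0 h, 2 of 14 measured were higher in KO, beside 9.34% of all genes, and 1 was lower, beside 4.07%. At 24 h 2 of 13 were higher, beside 5.76%, and none was lower, beside 12.2%. The medians were −0.03 at 0 h and −0.12 at 24 h. Gdpd1, a glycerophosphodiesterase that forms LPA inside cells, was higher in KO by 1.93 ± 0.20 and 2.45 ± 0.20. Pnpla6, a lysophospholipase, was higher by 1.58 ± 0.20 at 24 h, and Gpat3, a glycerol-3-phosphate acyltransferase, was lower at 0 h, at −1.25 ± 0.20, or −0.92 under the paired fibroblast scaling. Gdpd3, a relative of Gdpd1, stood at −3.88 ± 0.30 for 24 h minus 0 h in WT and at least 71.4-fold lower in KO, where its probe was no longer well above background. At 24 h Gdpd3 was thus outside the 13 measured, and it was at least 2.39-fold lower in KO than in WT. An at-least fold is set against the lowest signal read well above background on that array. Pnpla7 was also lower over time, at −1.13 ± 0.21 in WT and −2.61 ± 0.21 in KO.

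Among 11 genes for enzymes that remove or acylate LPA, Plpp3, an ectophosphatase for LPA, was lower in KO at 0 h, at −1.59 ± 0.20, and stood at −0.77 ± 0.20 at 24 h. Over 24 h in KO, 4 of 10 were higher: Agpat3 and Agpat4, which acylate LPA to phosphatidic acid, and Plpp2 and Plpp3, by 1.15 to 1.19, beside 9.48% of all genes. Under the paired fibroblast scaling none of the 4 passed 2-fold, at 0.25 to 0.29, and with normexp Plpp2 (0.84) and Agpat4 (0.90) did not. The list's median was 0.81 against 0.23 for all genes, and −0.10 under the paired scaling. None of 10 was called over time in WT. Lpcat2, an acyltransferase of leukocytes, was at least 19.5-fold lower at 24 h in WT and at least 66.3-fold lower in KO.

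All 16 transcripts listed as ones that LPA is known to raise in fibroblasts were measured on every array. At 0 h 4 were higher in KO and 1 was lower, with a median of 0.78, and at 24 h 9 were higher and 3 lower, with a median of 1.17 against −0.09 for all genes. All genes had 9.34% higher and 4.07% lower at 0 h, and 5.76% and 12.2% at 24 h. Under the paired fibroblast scaling 10 were higher at 0 h and 8 at 24 h, so the larger count at 24 h was not kept. The largest was Tagln, which encodes the actin-binding protein transgelin, with levels of −2.09, 5.92, −3.77 and 6.03 and KO minus WT of 8.02 ± 0.20 and 9.79 ± 0.21. Smooth muscle actin, Acta2, was higher in KO by 2.84 ± 0.07 and 2.72 ± 0.07, and the matricellular gene Ccn2 by 2.39 ± 0.20 and 3.56 ± 0.20. Hbegf, a growth factor of the EGF family, and Ptgs2, the inducible cyclooxygenase, differed by 2.40 ± 0.20 and 2.26 ± 0.07 at 24 h. At 0 h they stood at 0.95 and 0.87, and at 1.27 and 1.20 under the paired scaling. The chemokine gene Cxcl1 went the other way, at −3.23 ± 0.20 and −2.77 ± 0.20, as did the cytokine gene Il6 at 24 h, at −2.21 ± 0.20. Over time 8 of 16 were lower in WT (median −1.16) and 5 in KO (median −0.41), beside 5.55% and 10.9% of all genes. Under the paired scaling 11 and 10 were lower. The immediate early gene Fos stood at −3.17 ± 0.07 in WT and −5.23 ± 0.07 in KO. The summed mast cell marker signal was 515 in WT and 742 in KO at 0 h, then 3.30 and 19.1 at 24 h. The part of mast cell RNA in the changes of this list over time was not tested. In KO, Cxcl1 was the 1 gene of the list higher at 24 h, at 1.08 ± 0.20, or 0.17 under the paired fibroblast scaling. The 4 medians kept their signs under every scaling tried.

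**Figure D4:**
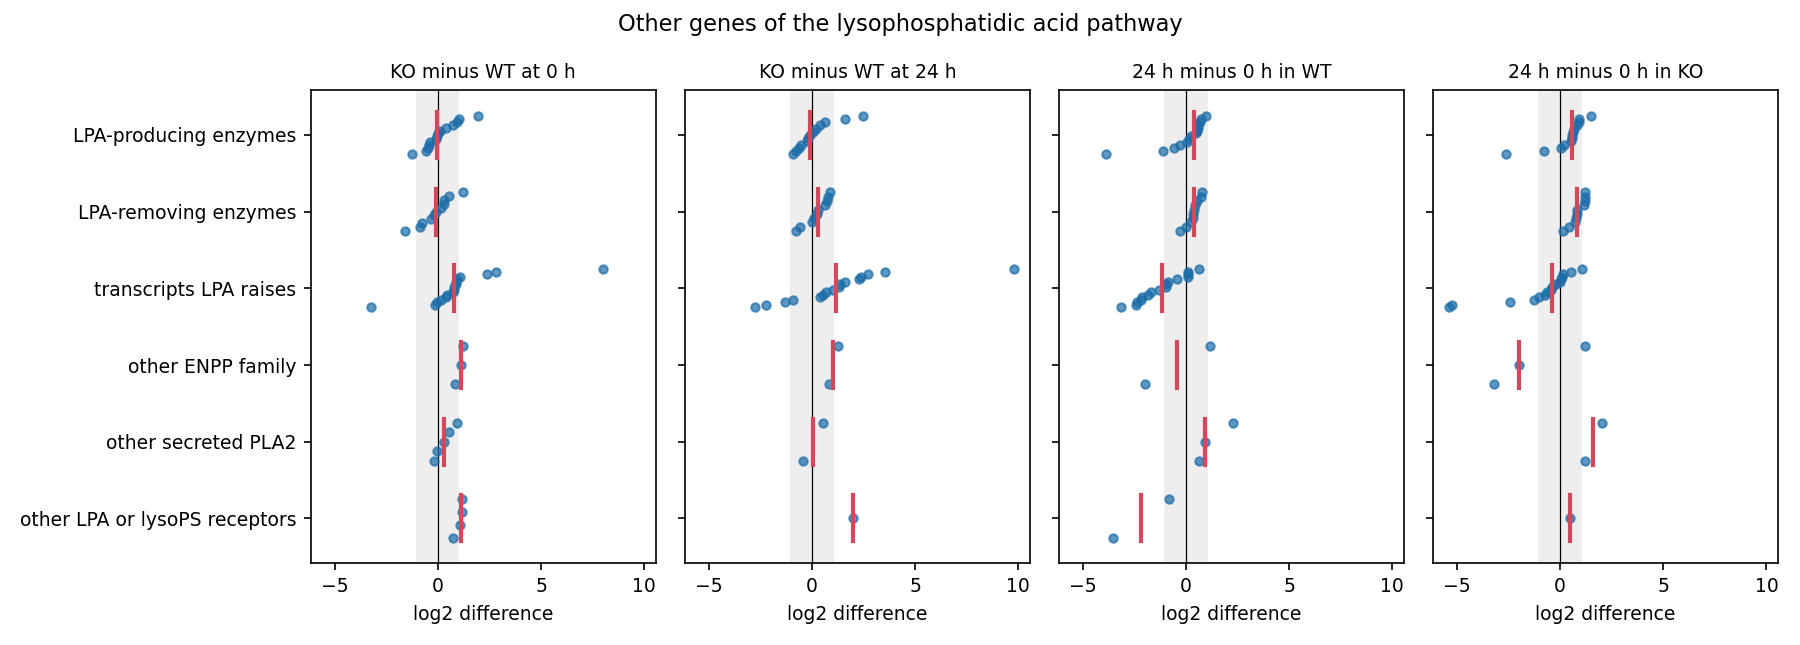
Log2 differences of the genes in 6 pathway lists, 1 point a measured gene, for the differences between genotypes and times. The list drawn as LPA-producing enzymes also holds the lysophospholipase genes Pnpla6 and Pnpla7. Transcripts that LPA raises spread widest, from −3.23 for Cxcl1 to 8.02 for Tagln in KO minus WT at 0 h; red bars are list medians.

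Relatives of the members were mostly weak. Of 6 other genes of the autotaxin (ENPP) family, Enpp3, an ectoenzyme also found on mast cells and basophils, was higher in KO by 1.21 ± 0.21 and 1.25 ± 0.21 and higher at 24 h by 1.16 ± 0.21 and 1.20 ± 0.21, or 0.64 and 0.29 under the paired fibroblast scaling. Enpp4 was lower at 24 h at −1.98 ± 0.21 in WT and −2.003 ± 0.20 in KO, and Enpp5 was lower by at least 7.28-fold in WT and stood at −3.22 ± 0.24 in KO. Among 10 other secreted phospholipases A2, 5 were measured at 0 h and 2 at 24 h. None of these was called between genotypes, beside 13.4% and 18.0% of all genes in either direction. Pla2g2a was well above background in WT at 24 h, at a weak −5.09, but not in KO at 24 h or WT at 0 h. It was at least 3.03-fold lower in KO at 24 h and at least 4.81-fold higher over time in WT. Pla2g2e was higher over time, by 2.28 ± 0.22 (WT) and 2.03 ± 0.25 (KO), and Pla2g12a by 1.19 ± 0.20 in KO, or 0.28 under the paired fibroblast scaling. Of 5 other receptors reported to bind LPA or lysophosphatidylserine, Gpr34 was lower at 24 h by at least 88.0-fold in WT and 265-fold in KO, and Gpr174 by at least 37.6-fold and 122-fold. P2ry10 was lower over time in WT (−3.54 ± 0.29) and by at least 70.6-fold in KO. These 3 receptor genes are known from leukocytes, and at 0 h each was higher in KO, by 1.07 to 1.18. In that comparison 9 of 14 pan-leukocyte markers were at least 2-fold higher, beside 9.34% of all genes. The part of leukocyte RNA in the 3 receptor differences was not tested. P2ry10b, a close copy of P2ry10 that array probes may not separate, was 2.002 ± 0.21 higher in KO at 24 h.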

How the data were processed

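The 4 single-colour Agilent arrays (Cy3, 1 per group) were analysed. Per the file headers, spot intensity comes from version 12.1.1.1 of Agilent Feature Extraction, with spatial detrending and no scaling between arrays. The authors' deposited value table holds a ratio: processed signal over the array's 75th percentile. Signal over table value was 1197.47, 1002.93, 926.641 and 749.899, constant within each array, so the table is linear and uncentred, in the direction of signal. Its medians were 0.0442, 0.0483, 0.0452 and 0.0334.

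From the deposited intensity, control and outlier spots were left out, log2 was taken, and the 75th percentile over 43020 spots was subtracted. Probes took their gene from RefSeq's GRCm38.p6 table by accession (29104 of 39429), symbol (3191) or synonym (74), and 7060 kept the file's name. A gene took its brightest probe by mean signal. Named are the 8 genes with every probe, the 3 genes nearest in pattern to each, defining markers, and up to 3 genes at each end of a list. Members, lists and alternatives were chosen with earlier results of these data known. Spot errors cover neither culture nor labelling, and the number of arrays limits precision. Alternatives used limma 3.58.1 (R 4.3.3), with a normexp offset of 50. The steps were tested on simulated data. A list that enters the counts of pathway genes is not reported here.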

Additional observations from a re-analysis of the deposited data

Results flagged for a closer look

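These pairs of differences ran in opposite directions between the groups, with 1 array on each side, and none of these contrasts was tested. For Lpar6, the KO minus WT difference came to 0.86 at 0 h and −0.61 at 24 h, both under 2-fold. For Pla2g3, 24 h minus 0 h was 1.58 in WT and −0.96 in KO, the latter under 2-fold. Its KO minus WT difference was 1.06 at 0 h and −1.47 at 24 h. Weak control RNAs differed between genotypes by 0.63 and −0.78, and their part in the Pla2g3 values was not tested.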

How the results depend on the processing

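No paired analysis was possible because each group has 1 array. The authors' value table left each member's call as it was. Scaling on the median level of fibroblast markers moved the median of all genes by 1.27 for KO minus WT at 0 h, and the paired scaling, chosen after seeing the data, by 0.33; over time in KO these shifts were −1.095 and −0.906. Causes of the changes below were not tested. Weak signal limits Lpar5, Pla2g3 and the dimmer Lpar2 probe.

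Among differences past 2-fold, those of Lpar2 and Lpar5 changed sign, and smaller ones of Lpar1, Lpar2, Lpar4 and Lpar5 also did under some settings. Scaling on fibroblast level put Lpar2 at −0.072 over time in KO and at −0.16 for the KO change less the WT change, which was −0.21 with its probes averaged. The latter difference for Lpar5 was 0.11 with quantile normalization and 0.059 with normexp.

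Counts at least 2-fold higher or lower follow, the report's first. In the set, for KO minus WT at 0 h, 2 higher became 5 with fibroblast level, 4 with paired scaling, and 1 with quantile normalization, normexp or the stricter filter, and 1 lower became 0 with fibroblast level. For KO minus WT at 24 h, 2 lower became 1 with quantile normalization, normexp or the stricter filter. Over time in KO, 2 higher became 1 with either fibroblast scaling, normexp or averaged probes, and 1 lower became 4 with either fibroblast scaling. For the KO change less the WT change, 1 higher became 0 with either fibroblast scaling, normexp or averaged probes, and 4 lower became 1 with normexp and 2 with the stricter filter.

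Pathway genes for KO minus WT at 0 h went from 12 higher to 54 with fibroblast level, 24 with paired scaling and 6 with the stricter filter, and from 3 lower to 1 with fibroblast level. At 24 h, 4 lower became 12 without a filter. Over time in WT, 2 higher became 5 with fibroblast level, 1 with paired scaling and 6 without a filter. Over time in KO, 10 higher became 0 and 1 with the level and paired scalings, and 8 lower became 24 and 20, or 18 without a filter. For the KO change less the WT change, 6 higher became 0 and 3 with those scalings, and 4 lower became 28 with fibroblast level and 17 without a filter.

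Over all genes, KO minus WT at 0 h had 1894 higher, against 15129 with fibroblast level, 3985 with paired scaling, 3839 without a filter, 803 with normexp and 708 with the stricter filter. Its 825 lower became 153, 473 and 1392 with fibroblast level, paired scaling and no filter. At 24 h, 995 higher became 1658 without a filter, and 2115 lower became 7610 without one, 670 with normexp, 1396 with quantile normalization and 1067 with the stricter filter. Over time in WT, 3029 higher became 8810 without a filter, 463 with normexp, 1100 with paired scaling and 714 with the stricter filter, and 1065 lower became 2157 without a filter and 2170 with paired scaling. Over time in KO, 1692 higher became 86 with fibroblast level, 132 with paired scaling and 998 with normexp, and 1947 lower became 7561, 6054 and 1191, or 5847 without a filter. For the KO change less the WT change, 808 higher became 67 with fibroblast level, 290 with paired scaling, 1493 without a filter, 469 with normexp and 1259 with quantile normalization. Its 2274 lower became 10474, 3508, 10822, 662 and 1504 in the same order, and 1019 with the stricter filter.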
